A study of Mus musculus with 45 samples.

Results

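Loss of Prdm1 exon 1A was examined in B cells that had spent 4 days in a Toll-like receptor (TLR) culture. The comparison took 6 of the study's 45 libraries, 3 from Prdm1 Δex1A mice (dEx1A below) and 3 from wild type mice, chosen by their genotype, culture and day labels, and covered the 19657 autosomal genes that passed a filter on low values. All mice were labelled C57BL/6, and the zygosity of the deletion was not given. Splenic B2 cells, which the protocol put at more than 95% purity, were grown with irradiated L cells expressing CD40L, LPS at 5 µg/mL, IL-4 at 50 ng/mL and IL-5 at 50 ng/mL, and were moved off the feeder cells at day 2. The wild type TLR libraries came from 7-week-old males and the dEx1A TLR libraries from 9-week-old females, so genotype, sex and age cannot be told apart in these 6 libraries, although the protocol text describes the mice as matched for sex and age. For reference, 2 other day 4 cultures were read the same way. A B cell receptor (BCR) culture had F(ab')2 anti-IgM/IgG at 12 µg/mL in place of LPS and the same split of sex and age as the TLR culture, and a culture labelled LPS, whose recipe was not spelled out in the labels used here, had 9-week-old females of both genotypes. Whether the 3 libraries of a group represent different mice is not stated, and p-values therefore reflect the variation among libraries, which may be partly technical.

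Prdm1 encodes Blimp-1, the zinc-finger repressor that drives activated B cells towards plasma cells by shutting down the B cell programme, and cell division with it, while immunoglobulin secretion is switched on. The gene is read from alternative promoters, and exon 1A is a first exon of part of its transcripts. Cells at an early plasmablast stage still divide and carry high levels of MYC-driven growth genes and glycolytic enzymes. The comparison asks what the day 4 population looks like in mice that lack exon 1A.

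The libraries held 28.6 to 30.3 M gene-assigned reads in wild type and 23.3 to 28.1 M in dEx1A, as recovered from the deposited values. All values below are log2 variance-stabilised expression, in which a gene with no reads stands at the floor of 3.04, and differences are dEx1A minus wild type on that log2 scale. The sex labels held: Xist stood at 4.11 to 4.36 in wild type and 15.14 to 16.43 in dEx1A, and the Y-linked Ddx3y at 11.02 to 11.82 against the floor. The B cell factor Pax5 (12.41 to 12.71) was high in all 6 libraries, as were the plasmablast factors Irf4 and Xbp1, whereas Sdc1, which encodes the plasmablast surface marker CD138, stood at only 6.26 to 7.11. Of the defining markers of other cells, Ncr1 of NK cells, C1qa of macrophages and Hba-a1 of red cells had no read in any of the 6 libraries, and Cd3e of T cells stood at 3.04 to 3.99. Others had reads, among them the macrophage marker Adgre1 (5.36 to 6.41), Prf1 of NK cells (4.55 to 5.64), Hbb-bs of red cells (3.81 to 5.11) and the fibroblast marker Sparc (6.53 to 7.60), which overlapped the range of Sdc1. The T cell genes Trac and Cd8a stood at 3.79 to 4.27 and 3.43 to 4.40. The summed level of the 17 fibroblast and feeder markers was 6725 to 8773 normalised reads in wild type and 9220 to 11921 in dEx1A, although Col1a1, Col1a2 and Sparc overlapped between the genotypes. The sum of the 19 myeloid markers went the other way, 1320 to 1508 in wild type and 914 to 1190 in dEx1A. That of the 16 T cell markers overlapped, 1236 to 2746 in wild type and 1115 to 2608 in dEx1A. The higher fibroblast and feeder sum was not a rise of most of its markers. Over the 13 of them that were tested the median difference was -0.20, and only Vim passed. In bulk RNA, a change in the share of a cell type and a change in RNA per cell cannot be told apart.

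The 6 libraries also split by base composition across the genotypes. The GC offset, the median deviation of GC-rich minus that of GC-poor genes, was -0.34, -0.05 and -0.46 in wild type 1, wild type 2 and dEx1A 2, and -1.57, -1.77 and -1.99 in wild type 3, dEx1A 1 and dEx1A 3. The main gene groups below are given again after a correction for GC content and transcript length, and with the GC set as a term in the model. The within-set differences compare libraries inside the higher and the lower GC set, in that order.

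Prdm1 itself (gene ENSMUSG00000038151.13, chr10:44437177-44528501 of GRCm38, minus strand) did not pass the test in this culture. Its values were 9.83, 9.66 and 9.86 in wild type and 9.91, 9.71 and 10.61 in dEx1A. The groups overlapped, and the difference was 0.29 (SE 0.28), with a 95% interval from -0.28 to 0.87 and an adjusted p of 0.571 (limma, Benjamini-Hochberg over all genes). Without dEx1A 3 the difference was 0.03, and without dEx1A 2 it was 0.48. The deposited value covers the whole gene, so exon 1A itself was not measured apart and the level does not check the deletion. In the other day 4 cultures the same gene differed. In BCR culture it read 9.68, 9.32 and 10.23 in wild type and 8.45, 7.27 and 8.82 in dEx1A, with no overlap. In LPS culture it read 12.55, 12.68 and 12.34 against 9.93, 9.60 and 10.01, a difference of -2.68. The wild type level at day 4 was thus far lower in TLR and BCR culture than in LPS culture, while the dEx1A level in TLR culture lay close to that in LPS culture. The genotype difference in TLR culture exceeded that in BCR culture by 1.86 (adjusted p = 0.015, limma interaction) and that in LPS culture by 2.97 (adjusted p = 3.63e-06). Without dEx1A TLR 3, wild type BCR 3 or dEx1A BCR 2 in turn, the TLR minus BCR value was 1.59, 1.61 and 1.40 and missed the threshold. By day 7 of TLR culture Prdm1 had reached 13.43, 13.04 and 13.09 in wild type and 11.90, 11.81 and 11.72 in dEx1A.

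**Figure D1:**
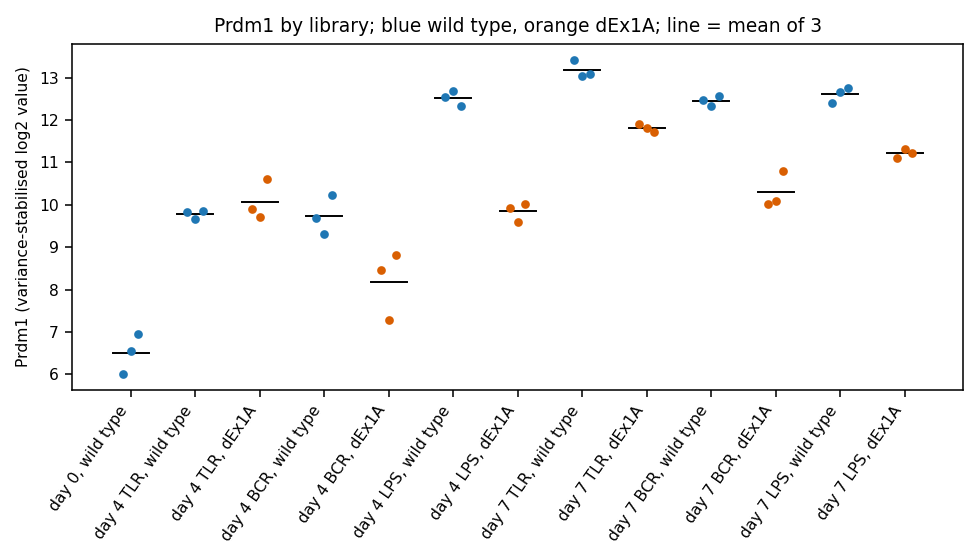
Prdm1 expression (log2 variance-stabilised value, vertical axis) in each library of the 13 groups of the table, with a bar at each group's mean. The 3 wild type and 3 dEx1A libraries of TLR culture at day 4 overlap between 9.66 and 10.61, whereas the genotypes lie apart in LPS culture at day 4 (12.34 to 12.68 against 9.60 to 10.01).

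Across the genome, 1407 of 19657 autosomal genes (7.16%) passed an adjusted p of 0.05 in limma, with 788 higher (4.01%) and 619 lower (3.15%) in dEx1A. Among the 10354 genes with a mean at least 3 above the floor, 738 were higher (7.13%) and 450 lower (4.35%). Of the 1407, 211 differed by more than 1 on the log2 scale, 57 of them higher and 154 lower. The libraries of the genotypes did not overlap for 1250 of the called genes (6.36% of those tested), against 3923 genes (20.0%) without overlap whether called or not. Both checks on base composition left 917 genes (4.67%), 568 higher (2.89%) and 349 lower (1.78%). The count depended on the spread borrowed from the other groups: with the 6 libraries fitted alone, 19 genes were called, 17 of them among the 1407. It also depended on single libraries. Without wild type 1, wild type 2, dEx1A 1 or dEx1A 3 the count was 460, 570, 809 or 500, and without wild type 3 or dEx1A 2 it was 3076 or 2875. A set of 399 genes passed in all 6 of these fits.

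**Figure D2:**
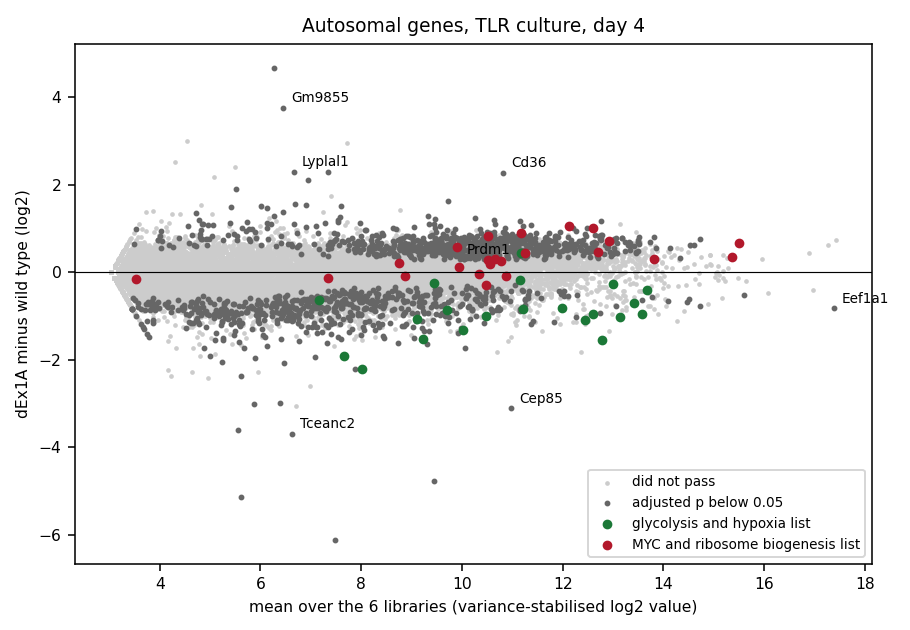
Difference between genotypes (dEx1A minus wild type, log2) against mean expression (log2) for the autosomal genes tested in TLR culture at day 4, with the members of the glycolysis and hypoxia list and the MYC and ribosome biogenesis list marked. The 9 called members of the first list lie between -0.83 and -2.21 and the 8 called members of the second between 0.45 and 1.05.

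Genes of glycolysis and the hypoxia response were among those lower in dEx1A. Of 21 tested members, 9 fell, none rose, and the median difference was -0.94, against -0.04 over all autosomal genes, where 3.15% fell. The members that fell run from glucose entry to lactate exit and oxygen sensing. Slc16a3, the lactate exporter MCT4, read 9.59, 9.89 and 7.87 in wild type and 6.38, 7.81 and 6.53 in dEx1A and fell by 2.21 (SE 0.43, adjusted p = 0.0015). Wild type 3 and dEx1A 2 nearly met, and the within-set differences were -1.93 and -1.42. Egln3, the prolyl hydroxylase PHD3 that marks HIF for destruction and is itself a HIF target, read 8.69, 8.26 and 8.88 in wild type and 6.72, 5.95 and 7.40 in dEx1A and fell by 1.92 (adjusted p = 0.00126), with no overlap. Pfkp, a phosphofructokinase, had the tightest groups: 12.47, 12.39 and 12.36 in wild type and 11.70, 11.45 and 11.59 in dEx1A, a fall of 0.83 (adjusted p = 1.37e-05). Vegfa, the angiogenic growth factor, read 10.81, 10.88 and 10.39 in wild type and 9.30, 9.53 and 9.26 in dEx1A and fell by 1.33 (adjusted p = 0.00692). Pdk1, the kinase that keeps pyruvate out of mitochondria, read 10.95, 10.77 and 11.22 in wild type and 10.05, 9.66 and 10.22 in dEx1A and fell by 1.00 (adjusted p = 0.00376). In all 5 genes every dEx1A library lay under every wild type library, and each passed in all 6 fits without 1 library.

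The other 4 members that fell moved strongly with the GC sets. Aldoa (aldolase A, difference -1.55), Gpi1 (glucose phosphate isomerase, -1.08), Slc2a1 (the glucose transporter GLUT1, -1.06) and Hk1 (hexokinase 1, -0.85) passed only where wild type 3 or dEx1A 2 was left out of the 6 fits without 1 library. For Aldoa, dEx1A 2 at 13.03 lay above wild type 3 at 12.53, while the within-set differences were -1.03 and -1.05. Gapdh, Pkm, Eno1, Tpi1 and Ldha did not pass, with differences from -0.40 to -1.03. Hif1a, which encodes the oxygen-regulated factor itself, differed by 0.44 (adjusted p = 0.368). After the GC and length correction 12 of the 21 fell (5.19% of all genes fell), and 12 with the GC set as a term (5.6% of all genes), with medians of -0.77 and -0.63 and none higher. With the 6 libraries fitted alone none passed at an adjusted p in limma, and 8 were lower and 0 higher at an unadjusted p under 0.05. In LPS culture 4 of the 21 rose and 1 fell (median 0.07), where 12.5% of all genes rose and 12.0% fell. In BCR culture 0 rose and 1 fell (median -0.19), where 1.15% of all genes rose and 0.626% fell. Outside the list, Ak4 (a mitochondrial adenylate kinase) and Ankrd37, which respond to hypoxia in many cells, were among the 15 named falls. Ak4 read 8.93, 8.82 and 9.17 in wild type and 6.60, 6.62 and 7.10 in dEx1A and Ankrd37 7.81, 7.89 and 7.78 in wild type and 6.21, 6.55 and 6.53 in dEx1A, without overlap.

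The core letters of the hypoxia response element, ACGTG, were searched on both strands of the 250 bases before RefSeq transcript starts (GRCm38.p6) for the 9 members that fell. They occurred in 6 of 14 windows, from 5 of the 9 genes (42.9% of windows), against 20.3% of the 15062 windows of all autosomal genes tested. Counted by gene, 23.6% of the 11872 autosomal genes with a window had the element. Of the 6 windows, 2 are overlapping Aldoa windows. Over all called genes the element was in 19.1% of windows of the lower and 24.3% of windows of the higher genes. The E-box CACGTG, with which ACGTG overlaps, was in none of the 14. Windows of 3 genes are printed because they show the position and strand of the match beside genes that fell together, 5' to 3' on the gene's strand with the match in capitals (CACGT is the same element on the opposite strand). The windows are those of Slc16a3 (chr11:120948817-120949066, plus), Egln3 (chr12:54203875-54204124, minus) and Aldoa (chr7:126799255-126799504, minus).
Slc16a3: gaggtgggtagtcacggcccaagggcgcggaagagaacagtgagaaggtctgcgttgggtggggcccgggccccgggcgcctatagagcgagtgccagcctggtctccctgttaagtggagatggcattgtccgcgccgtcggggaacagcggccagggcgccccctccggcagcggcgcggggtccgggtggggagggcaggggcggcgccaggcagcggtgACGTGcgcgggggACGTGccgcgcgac
Egln3: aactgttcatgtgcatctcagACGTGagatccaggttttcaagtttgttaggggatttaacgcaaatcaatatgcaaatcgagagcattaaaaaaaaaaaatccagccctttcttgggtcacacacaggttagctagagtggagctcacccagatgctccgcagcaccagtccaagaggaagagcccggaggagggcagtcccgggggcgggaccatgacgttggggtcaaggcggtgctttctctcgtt
Aldoa: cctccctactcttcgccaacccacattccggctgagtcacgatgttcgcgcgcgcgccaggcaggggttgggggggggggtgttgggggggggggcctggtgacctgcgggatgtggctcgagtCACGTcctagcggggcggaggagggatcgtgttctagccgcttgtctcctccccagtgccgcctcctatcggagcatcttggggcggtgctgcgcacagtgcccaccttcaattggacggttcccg
The Slc16a3 window holds the element in 2 places near its downstream end, the Egln3 window holds 1 near its upstream end, and the Aldoa window holds 1 near its middle. A match is a description of letters and not of a bound site.

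Some genes of MYC-driven growth and ribosome assembly were higher in dEx1A. Of 23 tested members, 8 rose, none fell and 15 did not pass, with a median difference of 0.30, where 4.01% of all autosomal genes rose. Gnl3 (nucleostemin, a nucleolar GTPase) read 11.45, 11.48 and 11.89 in wild type and 12.75, 12.41 and 12.80 in dEx1A and rose by 1.05 (SE 0.16, adjusted p = 7.66e-05). Nop58, a core protein of box C/D snoRNPs, read 11.88, 11.95 and 12.43 in wild type and 13.20, 12.77 and 13.33 in dEx1A and rose by 1.01 (adjusted p = 0.00227). Every dEx1A library of both genes lay above every wild type library. Utp20, Wdr12, Ddx21, Polr1b and Nop56, which act in pre-rRNA processing or RNA polymerase I, rose by 0.89, 0.84, 0.71, 0.59 and 0.45. Together with Gnl3 and Nop58 they passed in all 6 fits without 1 library, whereas Ncl (nucleolin, 0.67) passed in 2. Myc itself differed by 0.18 (adjusted p = 0.581). After the GC and length correction 16 members rose (6.23% of all genes rose), and 15 with the GC set as a term (8.83% of all genes), with none lower. With the 6 libraries fitted alone none passed at an adjusted p in limma, and 10 were higher and 0 lower at an unadjusted p under 0.05. Beside this, the translation genes Eef1a1, Rpl4 and Rpl3, among the most highly expressed called genes, fell by 0.83, 0.52 and 0.77. Eef1a1 read 17.95, 17.78 and 17.65 in wild type and 17.21, 16.95 and 16.74 in dEx1A, and passed in all 6 fits without 1 library. Rpl4 and Rpl3 were each weaker in 7 of 17 alternative settings. Eif4g2, another translation gene, and Hsp90aa1 were also among the most highly expressed called genes, and both rose. Their differences across those settings were 0.53 to 0.97 and 0.35 to 0.84. Eef1a1, Rpl4 and Rpl3 have many processed copies in the genome, among which reads may have been split.

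**Figure D3:**
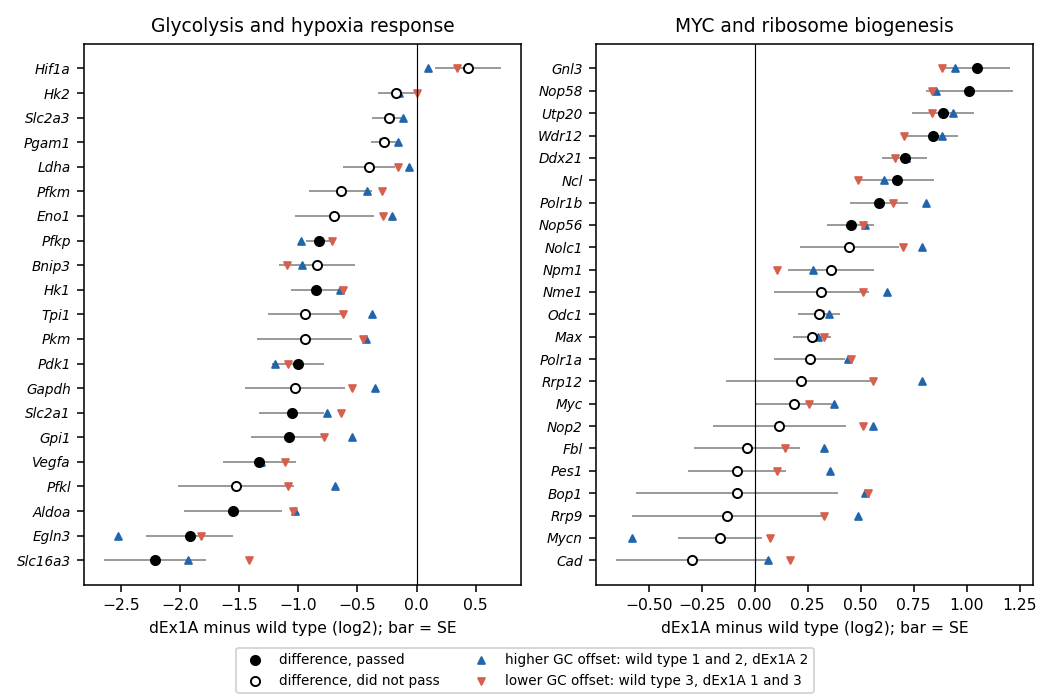
Difference between genotypes (dEx1A minus wild type, log2, with SE bars) for each member of the glycolysis and hypoxia list and the MYC and ribosome biogenesis list, with the differences within each GC set as triangles. In the first list 9 of 21 members fell and none rose, and in the second 8 of 23 rose and none fell.

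Among 31 genes of cell division, 6 rose and none fell (median 0.11), where 4.01% of all autosomal genes rose. The members that rose were Rrm2 and Tyms, which supply deoxynucleotides, Pcna, the replication clamp, the cyclin E genes Ccne1 and Ccne2, and Ccnb1, the cyclin of mitotic entry. Ccne2 passed in 2 and Ccnb1 in 4 of the 6 fits without 1 library. Rrm2 read 12.24, 12.26 and 12.43 in wild type and 13.01, 13.10 and 13.28 in dEx1A and rose by 0.82 (adjusted p = 0.000114). Pcna read 12.21, 12.29 and 12.65 in wild type and 13.19, 12.93 and 13.23 in dEx1A and rose by 0.73 (adjusted p = 0.00344). The groups did not overlap in either gene. The division genes Mki67, Top2a, Plk1 and Aurka did not pass, with differences of 0.11, 0.29, -0.52 and -0.16. Of 17 cell cycle brakes and D cyclins, Ccnd2 rose by 0.63, and Ccnd3 and Btg2, an antiproliferative gene, fell by 1.22 and 0.62 (3.15% of all genes fell). Ccnd3 passed in 2 of the 6 fits without 1 library. Cdkn2b, which encodes the CDK inhibitor p15, was among the 15 named rises at low levels, 5.50, 5.38 and 5.30 in wild type and 6.37, 6.86 and 7.37 in dEx1A.

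The largest rises by the naming rule were in Lyplal1, Amd2, Cd36 and Car12. Lyplal1, a lysophospholipase-like hydrolase (chr1:186087731-186117310), read 5.41, 5.31 and 5.80 in wild type and 7.80, 7.69 and 7.93 in dEx1A and rose by 2.30 (SE 0.19, adjusted p = 7.64e-10). Car12, a surface carbonic anhydrase, read 5.96, 5.80 and 5.92 in wild type and 7.96, 7.87 and 8.18 in dEx1A and rose by 2.11 (adjusted p = 2.65e-09). Cd36, the fatty acid and lipid scavenger receptor, read 9.74, 9.45 and 9.85 in wild type and 11.61, 11.73 and 12.52 in dEx1A and rose by 2.27 (adjusted p = 0.000102). In each gene the lowest dEx1A library lay more than a full log2 unit above the highest wild type library. Amd2, a copy of the S-adenosylmethionine decarboxylase gene of polyamine synthesis, read 6.20, 6.22 and 6.18 in wild type and 8.72, 8.29 and 8.47 in dEx1A, and its parent Amd1 rose as well, by 0.79. Reads of these near-identical copies may be exchanged, so the Amd2 value is uncertain. The other named rises were Rgs1 (1.64), a brake on chemokine receptor signalling, Gpm6a (1.54), Msc (1.51), a bHLH repressor of activated B cells, Cdc42ep3 (1.38), Il7r (1.28), Zfp781 (1.27), Atg5 (1.22), of autophagy, the zinc exporter Slc30a1 (1.20), the cytokine Il6 (1.19) and the replication origin subunit Orc2 (1.18). Rgs1, Il7r, Zfp781 and Il6 passed in only 2 or 3 of the 6 fits without 1 library, and the others in all 6.

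The largest falls by the same rule were in Tceanc2 and Cep85, on chromosome 4, followed by Slc16a3, Ak4 and Egln3. Tceanc2 read 8.47, 8.52 and 8.45 in wild type and 4.83, 4.89 and 4.64 in dEx1A and fell by 3.69 (adjusted p = 1.26e-15). Cep85, a centrosomal protein gene, read 12.47, 12.91 and 12.22 in wild type and 9.39, 9.63 and 9.25 in dEx1A and fell by 3.11 (adjusted p = 2.22e-09). The gap between the genotypes was many times the spread within them. The remaining falls were Cnbd2 (-1.69), the long noncoding Mirt1 (-1.64), the guanylate-binding protein gene Gbp2b (-1.61), Stc2 (-1.57), a secreted stress-response glycoprotein, Ttc21a (-1.52), Tbc1d17 (-1.51), Ppp1r3b (-1.49), which targets phosphatase to glycogen, Rasa4 (-1.40), Ankrd37 (-1.40) and the interferon-induced exonuclease Isg20 (-1.36). Tbc1d17, Rasa4 and Isg20 passed in 2 or 3 of the 6 fits without 1 library. Gbp2b belongs to a family of similar genes among which reads can be split.

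Some of the largest differences followed the sex and age labels of the whole table, including the LPS culture in which both genotypes were female. Tceanc2 stood at 8.29 to 9.12 in every male wild type group and at 4.52 to 5.59 in every female group. Wild type LPS libraries at day 4 read 4.76, 5.11 and 4.84, beside 5.09, 4.84 and 4.62 in dEx1A. The genotypes thus overlapped in LPS culture at day 4. At day 7 of LPS culture, with sex and age again the same, they did not, with 4.80, 4.52 and 5.13 in wild type and 5.59, 5.33 and 5.29 in dEx1A. The processed pseudogene Gm9855 showed the mirror pattern, with 4.78, 4.53 and 4.44 in wild type TLR libraries, 8.08, 9.18 and 7.73 in dEx1A TLR libraries, and 9.29, 9.29 and 9.32 in female wild type LPS libraries. Tdg-ps, another pseudogene, did the same, with 3.67 to 4.40 against 8.52 to 8.65 in TLR culture and 8.11 to 8.33 in wild type LPS. Gm9855, Tdg-ps and the Gm genes of the next sentences lie outside the naming rule and were chosen after their values were seen. Gm32687 read 8.05, 7.99 and 8.51 in wild type TLR libraries and stood at the floor in the 3 dEx1A libraries and in all LPS libraries. Cep85, Gm42031 and Gm43305 lay between these patterns. Gm42031 read 10.41, 11.07 and 10.13 against 4.74, 4.57 and 3.93 in TLR culture, and 9.05, 7.76 and 8.18 against 5.52, 5.09 and 4.85 in LPS culture. Cep85 in LPS culture read 10.93, 10.55 and 10.50 in wild type and 9.88, 9.96 and 9.88 in dEx1A. Lyplal1, Amd2 and Car12 also rose in LPS culture, by 0.57, 2.83 and 0.92, whereas Cd36 differed there by 0.12 (adjusted p = 0.864).

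**Figure D4:**
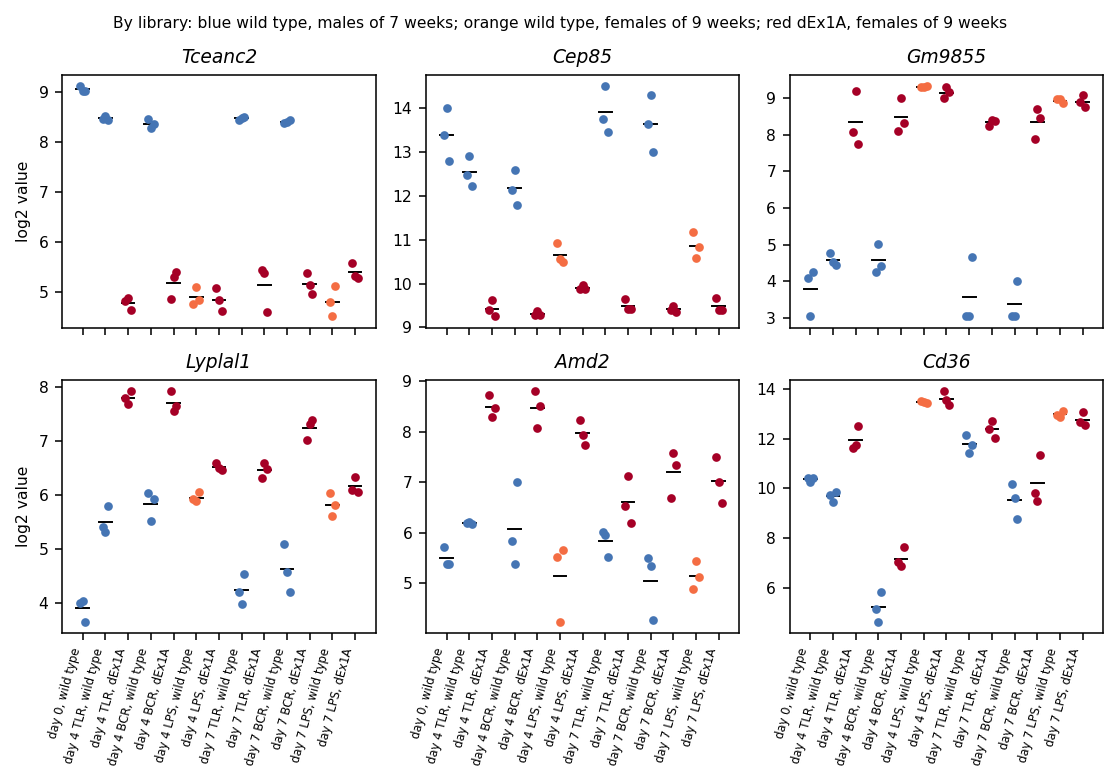
Expression (log2) of Tceanc2, Cep85, Gm9855, Lyplal1, Amd2 and Cd36 in each library of the 13 groups, coloured by labelled sex, age and genotype. Tceanc2 is at 8.29 to 9.12 in all male wild type groups and at 4.52 to 5.59 in all female groups of either genotype.

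Most of the transcription factors that set the fate of B cells were called in neither direction. Of 30 tested, 4 fell and none rose, with a median difference of 0.01, beside shares of 3.15% lower and 4.01% higher over all genes. Bcl6, the germinal centre repressor, read 8.26, 8.34 and 8.14 in wild type and 7.52, 7.13 and 7.02 in dEx1A and fell by 1.02 (SE 0.16, adjusted p = 0.000102), in all 6 fits without 1 library. Spib and Irf8, factors of the mature B cell state that oppose plasma cell formation, fell by 1.16 and 0.80, and Pou2f2 (OCT2) by 0.49. Spib read 11.21, 11.30 and 10.53 in wild type and 9.63, 10.61 and 9.33 in dEx1A, with dEx1A 2 above wild type 3, and passed in 2 of the 6 fits. Irf8 passed in 2 of those fits and Pou2f2 in 3. The plasma cell factors Irf4 and Xbp1 differed by 0.40 (adjusted p = 0.177) and 0.00 (adjusted p = 1), and the B cell factors Pax5, Bach2, Ebf1 and Pou2af1 by -0.12, 0.18, 0.11 and 0.01. Spi1, Id2, Id3, Tcf3, Tcf4, Tcf12, Ets1, Zbtb20, Zbtb32, Ikzf1, Ikzf3, Foxo1, Klf2, Mitf, Batf, Mef2c, Zeb2 and Hhex lay between -0.59 and 0.49 and did not pass either. In LPS culture 11 of the 30 rose and 6 fell, where 12.5% of all genes rose and 12.0% fell, and Bcl6 and Spib went the other way, by 1.10 and 1.09.

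Targets of Blimp-1 moved in part. Of 17 genes that textbooks give as repressed by Blimp-1, 4 fell (Bcl6, Spib, Cxcr5 and Fcer2a), 1 rose (Blnk, 0.34) and 12 did not pass, where 3.15% of all genes fell and 4.01% rose. Of 10 given as activated, Atf6 rose by 0.47, Slpi fell by 1.53 and 8 did not pass. Spib, Cxcr5, Atf6 and Slpi passed in 2 of the 6 fits without 1 library and Blnk in 1. Fcer2a, the low-affinity IgE receptor CD23, read 13.18, 13.26 and 13.16 in wild type and 12.40, 12.51 and 11.87 in dEx1A and fell by 0.94 (adjusted p = 0.00158). Among 31 plasma cell genes, Tnfrsf13b (the BAFF and APRIL receptor TACI) rose by 0.36 and Slpi fell, against 1 higher and 22 lower in LPS culture, where 12.0% of all genes fell. Among 40 genes of ER folding, export and degradation, Ssr1 and Atf6 rose by 0.70 and 0.47, against 1 higher and 29 lower in LPS culture. In LPS culture the GC offsets were 0.86 to 0.87 in wild type and -0.73, 0.21 and 0.29 in dEx1A, and the part of base composition in those counts was not tested. Among 13 immunoglobulin constant genes, Ighg3 rose by 1.23 and Ighe fell by 1.14. Ighg3 read 9.96, 9.87 and 9.07 in wild type and 10.42, 11.18 and 10.99 in dEx1A, and passed in none of the 6 fits without 1 library.

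In the mature B cell list, 2 of 28 rose and 3 fell, where 4.01% and 3.15% of all genes did. Cd24a, the heat-stable antigen, read 12.05, 11.89 and 12.57 in wild type and 13.37, 12.90 and 13.78 in dEx1A and rose by 1.18 (adjusted p = 0.00273), and the activation marker Cd69 rose by 1.02. Vpreb3, Fcer2a and Fcrla fell by 1.32, 0.94 and 0.83. H2-Ob, which encodes a subunit of the class II loading inhibitor H2-O, fell by 0.88, and the other 15 class II presentation genes did not pass. Of 23 genes of BCR signalling, Rasgrp3 and Blnk rose by 0.62 and 0.34. Among genes that act with the cytokines of the medium, in the IL-4 and STAT6 list 4 of 20 fell (Il4i1, Socs3, Ighe and Fcer2a) and Socs2 rose, and in the cytokine receptor and JAK-STAT list 5 of 28 fell (Jak3, Il9r, Il10ra, Stat2 and Stat3) and Il7r rose. Socs3, the feedback inhibitor of IL-6 signalling, read 8.81, 9.00 and 8.18 in wild type and 7.56, 7.85 and 6.86 in dEx1A and fell by 1.24 (adjusted p = 0.00858). Il4i1 and Jak3 fell by 1.73 and 1.45 and passed in 2 of the 6 fits without 1 library. Il6, in contrast, read 9.90, 9.84 and 10.36 in wild type and 11.39, 10.92 and 11.36 in dEx1A and rose by 1.19.

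Of 31 interferon-stimulated genes, 4 fell and 1 rose, where 3.15% of all genes fell and 4.01% rose. Oas3, an antiviral RNA sensor, read 10.05, 9.95 and 9.75 in wild type and 9.50, 7.84 and 8.40 in dEx1A and fell by 1.34 (adjusted p = 0.00933). Irf7, Zbp1 and Stat2 fell by 1.11, 0.83 and 0.62, and Gbp2 rose by 0.83. The within-set differences of Oas3 were -2.16 and -0.80, and those of Irf7 -1.52 and -0.49. Among 19 TLR and LPS sensing genes only Irak2 passed, at -0.44 and in 2 of the 6 fits without 1 library, and among 25 NF-kB targets Il6 rose and Bcl3 fell by 1.25. In the ATF4 and CHOP list, 3 of 28 fell (Stc2, Vldlr and Ddit4) and none rose. Vldlr, a lipoprotein receptor, read 8.29, 8.26 and 8.85 in wild type and 7.68, 6.69 and 7.17 in dEx1A and fell by 1.29 (adjusted p = 0.00144). In lipid metabolism, Cd36 and the elongase gene Elovl6 rose among 18 fatty acid genes, the latter by 0.76, and Insig1 rose by 0.51 among 22 cholesterol genes. Of 26 homing genes, Selplg, S1pr3, Ackr3 and Cxcr5 fell, by 1.39, 0.93, 0.82 and 0.43. In the BCL2 and cell death list the p53 targets Zmat3 and Mdm2 rose by 0.62 and 0.47 and the BH3-only killer Bmf fell by 0.95, with Casp9 at -0.43. Immediate early genes moved both ways, with Klf6, Egr3 and Ier5 higher by 0.84, 0.70 and 0.67 and Nr4a1 lower by 0.78. Over all the lists of autosomal genes, 82 of 618 members tested passed (13.3%, beside 7.16% of all autosomal genes), 38 higher (6.15%) and 44 lower (7.12%). Among all autosomal genes with a mean at least 3 above the floor, 7.13% were higher and 4.35% lower. Of the 82, 29 passed in all 6 fits without 1 library and 37 in 2 or fewer. Among the 37 were Ddit4, Bcl3, Zbp1, Elovl6, Insig1, Selplg, S1pr3, Ackr3, Casp9, Klf6, Egr3, Cd69, Stat3, Il10ra and Socs2 in 2 fits each, and Nr4a1 in 1. Irf8, Ighe and Tnfrsf13b also passed in only 2 fits each. Eomes, a T-box factor of the NK list, read 4.65, 4.63 and 4.40 in wild type and 6.09, 6.01 and 7.28 in dEx1A and rose by 1.90, while the summed level of that list overlapped between the genotypes (98.8 to 164 against 74.96 to 268 normalised reads). Vim rose by 0.65 in the fibroblast list, whose 13 tested members had a median difference of -0.20. The part of Vim in the higher sum of that list was not tested.

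Some genes beside Prdm1 on chromosome 10 were higher in dEx1A. Within 1 Mb, 10 of 28 tested genes passed (35.7%, beside 7.16% of all autosomal genes), and all 10 were higher, while 1700027J07Rik (-0.35) and Gm9034 (-0.33) were among those that did not pass. Within 5 Mb the count was 16 of 74 (21.6%), 14 of them higher. The 28 and the 74 include Prdm1 itself, which did not pass. The 14 include Gm9855, one of the genes that followed the sex and age labels. Atg5, whose nearest end lies 72.9 kb from Prdm1, read 8.78, 8.82 and 8.99 in wild type and 9.88, 9.88 and 10.49 in dEx1A and rose by 1.22 (adjusted p = 2.11e-05). Gm35028, a long noncoding RNA gene 12.9 kb away, read 4.15, 4.32 and 4.08 in wild type and 5.22, 5.12 and 5.81 in dEx1A and rose by 1.20. Crybg1 at 288 kb, Bend3 at 922 kb and Cd24a at 853 kb rose by 0.83, 0.84 and 1.18, and Prep, Qrsl1, Pdss2, F930017D23Rik and Gm47389 by 0.49, 0.34, 0.42, 0.87 and 0.64. Of the 10 genes, 6 passed both checks on base composition. In LPS culture 6 of the 10 were also higher, where 12.5% of all genes were. None was called higher in BCR culture, where only 1.15% of all genes were. Atg5 in LPS culture read 9.44, 9.56 and 9.65 against 10.43, 10.28 and 10.46. Farther out, Rpf2, Gtf3c6 and Amd1, at about 4 Mb, rose by 0.77, 0.65 and 0.79, and Foxo3, a quiescence factor, fell by 0.47. After the GC and length correction the Foxo3 difference was -0.18 and did not pass (adjusted p = 0.491, limma).

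**Figure D5:**
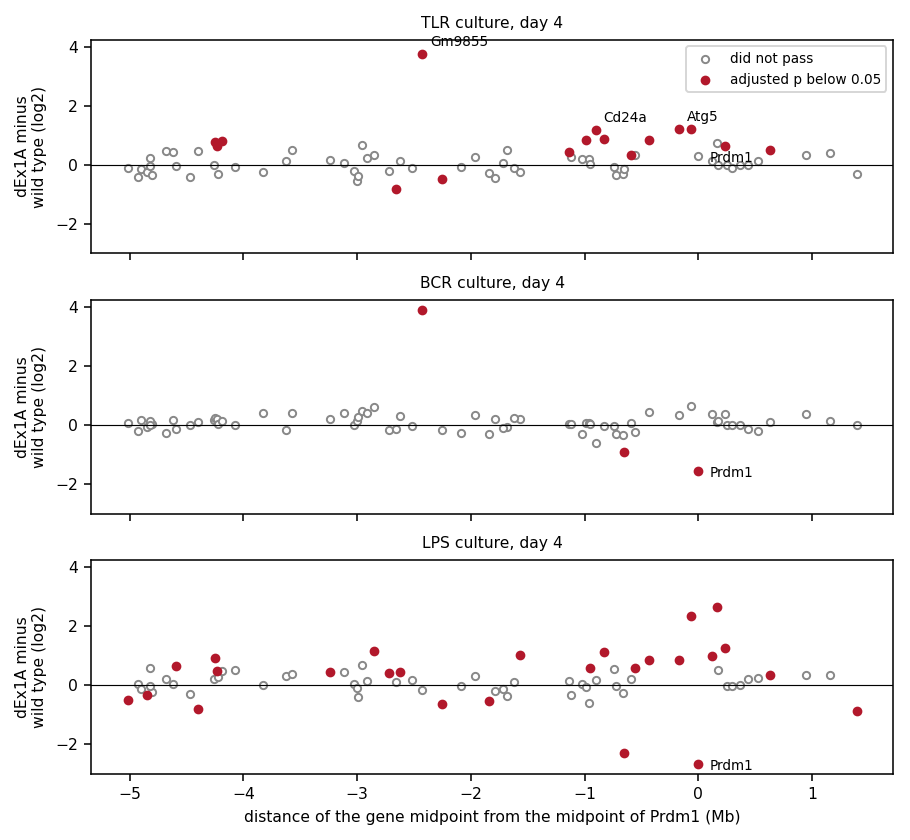
Difference between genotypes (dEx1A minus wild type, log2) of the genes within 5 Mb of Prdm1 against distance from Prdm1 (Mb), for TLR, BCR and LPS culture at day 4. In TLR culture 16 of 74 genes, Prdm1 counted in the 74, were called, 14 of them higher. Gm9855 (3.75), one of the genes that followed the sex and age labels, lay farthest from zero.

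In BCR culture 349 genes were called in all (1.78%). Of the 788 genes higher in TLR culture 22 (2.79%) were also higher in BCR culture, 9.73% of the 226 higher there (1.15% of all genes), and none was lower. Of the 619 lower genes 43 (6.95%) were also lower in BCR culture, 35.0% of the 123 lower there (0.626% of all genes), and 7 were higher. LPS culture shared more, with 4813 genes called (24.5%; 12.5% higher and 12.0% lower): 379 of the 788 (48.1%, 15.4% of 2456) were also higher and 145 of the 619 (23.4%, 6.15% of 2357) also lower, with 32 and 70 called in the opposite direction. These overlaps used values not corrected for base composition. The GC offset was lower in dEx1A in LPS culture (0.86 to 0.87 in wild type, -0.73, 0.21 and 0.29 in dEx1A). In BCR culture it overlapped (-0.78, 0.03 and -1.55 in wild type, -1.14, -0.37 and -1.16 in dEx1A). The part of base composition in the shared genes was not tested. Called in the same direction in all 3 cultures were 7 genes higher (Amd2, Car12, Ier5, Lyplal1, Nek6, Nxpe2 and Vim) and 10 lower, among them Cep85, Vegfa, Gm42031 and Gm43305. The test of the difference itself called 146 genes (0.743%; 0.173% above 0 and 0.57% below) between TLR and BCR culture and 1842 (9.37%; 4.75% above 0 and 4.62% below) between TLR and LPS culture. Gnl3 was among them in both tests, with a TLR culture difference 0.98 above that in BCR culture and 1.00 above that in LPS culture. Cd24a, Rrm2, Utp20 and Elovl6 also had a larger difference in TLR than in BCR culture, by 1.79, 0.90, 0.90 and 1.37, and Stc2, Mirt1 and Bmf a more negative one, by -2.02, -1.63 and -1.55. Slc16a3 differed between TLR and LPS culture by -3.21 (adjusted p = 0.000535), where wild type LPS libraries stood at 4.97 to 5.33, far below the wild type TLR level.

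The called genes were also followed through the wild type change from day 4 to day 7 in BCR and LPS culture, which shares no library with the genotype comparison. In BCR culture 37.9% of genes changed over this step, 18.9% rising and 19.0% falling. Of the 788 genes higher in dEx1A, 537 (68.2%) fell and 64 (8.12%) rose over the step, and of the 619 lower genes 262 (42.3%) rose and 96 (15.5%) fell. Most of the higher genes had a mean at least 3 above the floor, and of all 10354 such genes 28.9% fell and 20.5% rose. In LPS culture 8.4% of genes changed, 4.77% rising and 3.63% falling. There 93 of the higher genes (11.8%) fell and 28 (3.55%) rose, and 68 of the lower genes (10.99%) rose and 35 (5.65%) fell. The genes passing both checks on base composition gave similar shares in BCR culture, with 71.7% of 568 falling and 44.4% of 349 rising. Those checks cover the genotype difference only, and the step itself was not corrected. The wild type BCR libraries had GC offsets of -0.78, 0.03 and -1.55 at day 4 and -1.15, -0.22 and 0.31 at day 7. The part of base composition in these shares was not tested.

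Motifs of Blimp-1 and of interferon factors were searched in the same promoter windows. AGNGAAAG, the core letters of the Blimp-1 site, was in 7.52% of windows of the genes higher in dEx1A, 8.72% of those of the lower genes and 6.62% of all windows. The interferon response element, whose letters overlap those of the Blimp-1 site, was in 2.70%, 5.03% and 2.79%. Neither motif was in the 250 bases before the Prdm1 start. These shares are descriptions, with no test.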

How the data were processed

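Per the submitters' processing notes, the authors trimmed single-end reads of stranded total-RNA libraries with Trim Galore 0.6.0, checked them with FastQC 0.11.8, and used RSEM 1.3.0 with STAR 2.6.0c, then DESeq2 1.22.2 under R 3.5.1. The notes name GRCm38.p6 and mm10, while neither the annotation nor the strand setting is named there. The table deposited by the authors holds log2 variance-stabilised values, on which limma 3.58.1 (R 4.3.3) was run over all 39 libraries and 13 groups with a trend, 26 residual degrees of freedom and Benjamini-Hochberg adjustment. Genes at least 1 above the floor of 3.04 in at least 3 libraries were kept (20331 of 28195, of which 19657 are autosomal). Sex-linked and mitochondrial genes stay in the adjustment and out of the counts. A further 9 genes had no match in GENCODE M21. Reads were recovered by inverting the transform, and 95.1% to 100% of values under 20 reads came out whole within 0.1 (20% by chance). The fit was tested on simulated data. No pair of libraries counted as duplicates. Named were the 15 largest rises and 15 largest falls among called, non-overlapping, named genes with a mean at least 3 above the floor, Prdm1 and fate factors, the 3 largest called members of each list, and the 3 most expressed called genes in each direction. The members and lists were chosen with earlier results of these data known. Alternatives covered the libraries fitted, filters, scaling, trend, adjustment, recovered reads, GC content, replicate number and each replicate.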

Additional observations from a re-analysis of the deposited data

Results flagged for a closer look

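The genotype difference at day 4 was itself compared between cultures, by limma interaction with Benjamini-Hochberg adjustment, and the values in this section passed an adjusted p of 0.05. Each is the difference in TLR culture minus that in the other culture, on the log2 scale. Against BCR culture, where sex and age were split between the genotypes as in TLR culture, the values above 0 were those of Slc30a1 (0.82), Prdm1 (1.86), Atf6 (0.74), Cd24a (1.79), Rrm2 (0.90), Gnl3 (0.98), Utp20 (0.90), Elovl6 (1.37), Eomes (2.41) and Bend3 (0.77). The values below 0 were those of Mirt1 (-1.63), Stc2 (-2.02), H2-Ob (-1.02), Irak2 (-0.85), Bmf (-1.55), Nr4a1 (-2.13) and Eef1a1 (-1.13). Prdm1 did not pass in TLR culture and fell in BCR culture, and Nr4a1 fell in TLR culture and rose in BCR culture (difference 1.35). Cd24a, Eomes and Elovl6 rose in TLR culture and did not pass in BCR culture, with differences there of -0.61, -0.51 and -0.61.

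Against LPS culture the 2 genotypes were of the same labelled sex and age in LPS culture and not in TLR culture, so culture, sex and age cannot be told apart in these values. Genes that followed the sex and age labels wholly or in part were Tceanc2 (-3.64), Cep85 (-2.36), Gm9855 (3.90), Gm42031 (-2.95), Gm32687 (-5.14), Gm43305 (-2.41) and Tdg-ps (4.63). The fate factors were Prdm1 (2.97), Irf4 (1.17), Xbp1 (1.57), Pax5 (-1.05), Bcl6 (-2.12), Spib (-2.25), Ebf1 (-0.69), Pou2af1 (0.70), Pou2f2 (-0.65), Zeb2 (-1.55) and Hhex (-1.77), and other genes of B cell and plasma cell identity were Slpi (3.15), Fcer2a (-1.35), Blnk (0.46), H2-Ob (-0.92), Ighg3 (2.11), Ighe (-1.37) and Nuggc (2.17). For Slpi, Irf7, Nuggc and Isg20 the difference was negative in both cultures and larger in size in LPS culture. It was -4.68 for Slpi and -3.63 for Irf7 in LPS culture, and -1.13 for Nuggc in TLR culture. Genes of glycolysis, hypoxia and stress were Slc16a3 (-3.21), Ak4 (-2.12), Ankrd37 (-2.16), Stc2 (-2.25), Vldlr (-1.20) and Ppp1r3b (-1.997). Genes of division, ribosome assembly and translation were Rrm2 (0.85), Pcna (0.68), Gnl3 (1.00), Eef1a1 (-1.24), Rpl4 (-0.83) and Rpl3 (-1.01). Cytokine, interferon and signalling genes were Socs3 (-2.44), Il9r (-1.89), Oas3 (-1.41), Irf7 (2.52), Isg20 (1.81), Gbp2b (-2.30), Mpeg1 (-2.30), Klf6 (1.00), Eomes (1.33), S1pr3 (-1.08) and Rgs1 (3.08). Genes of lipid and surface enzymes were Lyplal1 (1.73), Cd36 (2.15), Car12 (1.19) and Insig1 (1.09), and genes beside Prdm1 were Bend3 (0.89) and Gm35028 (-1.13). The remaining named genes were Gpm6a (2.26), Msc (1.51), Cdc42ep3 (2.05), Slc30a1 (0.75), Mirt1 (-1.64) and Ttc21a (-1.56).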

How the results depend on the processing

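No gene named by the rule that passed changed sign under any setting, but the majority among called genes did turn, from 788 higher and 619 lower to 1404 and 1672 without wild type 3, 1327 and 1548 without dEx1A 2, and 4 and 15 with the 6 libraries fitted alone. Precision is limited by 3 libraries a group. The count of 1407 genes was 19 with the 6 libraries alone, 2246 once corrected for GC content and length and 2836 with the GC set as a term, a setting chosen after seeing the data. In the same 3 settings the list members called were 0, 124 and 156 instead of 82, the MYC and ribosome members 0, 16 and 15 instead of 8, and the glycolysis and hypoxia members 0, 12 and 12 instead of 9. With 1 library left out in turn, the genes called ranged from 460 to 3076, the list members from 32 to 152 and the glycolysis members from 5 to 16. Centring each library on its median moved the median of all genes by 0.21, from -0.04 to 0.17, and gave 1576 higher and 302 lower genes (83.9% higher, against 56.0%), and voom with TMM factors on recovered reads gave 803 higher and 890 lower (47.4%).

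The TLR minus BCR count of 146 was 28 with the groups compared alone, 532 after the GC and length correction, 90 after centring and 57 to 248 with 1 library left out, 57 without dEx1A BCR 2 and 248 without wild type BCR 2. Without wild type TLR 1, dEx1A TLR 3, wild type BCR 1, wild type BCR 3 or dEx1A BCR 3 it was 81, 92, 79, 69 and 96. The Prdm1 value of that contrast was 1.86 (adjusted p = 0.216) with the groups alone and 1.40 to 2.18 with 1 library left out. The TLR minus LPS count of 1842 was 3784 after the GC and length correction. The share called near Prdm1 was 35.7% within 1 Mb. The cause of these shifts was not tested.

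With genes differing by over 1 only, the Blimp-1 motif was in 4.55% of windows of higher genes (2 of 44) and 13.1% of those of lower genes (18 of 137). The interferon motif was in 9.09% (4 of 44) and 3.65% (5 of 137). The order was opposite to that over all called genes for the interferon motif and the same for the Blimp-1 motif. In wild type BCR culture 43.9% of higher genes then fell and 19.3% rose, and 35.7% of lower genes rose. In LPS culture 1.75% of higher genes (1 of 57) fell and 7.02% (4 of 57) rose, also the opposite order. Of the lower genes there, 7.14% rose and 3.90% fell. Of those higher genes 14.04% were also higher in BCR and 38.6% in LPS culture, and of the lower genes 14.3% and 27.9% were also lower.

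Replicate numbers matched the libraries only in part: deviations of same-numbered libraries correlated at -0.61, 0.91 and 0.89 over genes. In TLR and BCR culture at day 4, replicate 2 had the highest GC offset of every group and replicate 3 the lowest. What the number stands for was not tested. With the replicate block, 6 genes were called (1 higher, 5 lower), 0 list members, 0 members of either list above, and 1079 genes in the TLR minus BCR contrast. At an unadjusted p under 0.05 in limma, 142 of 618 list members (23.0%) passed with the 6 libraries fitted alone, beside 16.7% of all genes, and 226 (36.6%) with the block, beside 28.2%. The planned edgeR quasi-likelihood test was not run, because the deposited unit is log2 and not counts.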

Other observations

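The mitochondrially encoded genes, which were tested but lie outside the autosomal counts, had a median difference of 0.90 over 13 members, and 1 of them, mt-Cytb, rose by 0.79 (adjusted p = 0.0387, limma). Their summed level was 5.35e+05 to 9.42e+05 normalised reads in wild type and 7.85e+05 to 1.23e+06 in dEx1A, and the groups overlapped.

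Chromosomes 4 and 10, which carry Tceanc2, Cep85 and the genes beside Prdm1, had the largest shares of called genes among the autosomes, 9.57% and 9.16%.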
